A study of Mus musculus with 2 samples.

Results

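Long-read transcript models that start like a longer transcript of the gene but stop early in its chain of introns were examined in mouse heart. For 603 of the 695 models described here an annotated transcript began with the same splice junctions and went on further, and for the other 92 none did. The program TALON, which sorts long reads into annotated and unannotated transcript models, names this class the prefix subtype of incomplete splice match. A member was a model of this class in both libraries with the same chromosome, strand and intron chain and at least 1 read in each, spike-in RNA left out. There were 695 members in 576 genes, of 32967 models of any class that could be matched between the libraries. The members were thus chosen by TALON class and by read number, so both are given as description.

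The RNA came from whole heart of female B6CASTF1/J mice, an F1 hybrid of C57BL/6J and CAST/EiJ, aged 14 days. There was 1 group with 2 libraries, replicates 1 and 2, each from 2 µg of total RNA, and no condition was compared. The labels call the libraries biological replicates but describe the animals behind replicate 2 in conflicting ways, one wording pointing to several pooled females, so the spread between libraries may be partly technical. Replicate 1 held 896941 reads and replicate 2 held 972159. After genomic and spike-in reads were left out, 858071 and 926560 remained, and a single read was worth 1.17 and 1.08 CPM (reads scaled to these totals). The limit of 3 reads that a count of 0 permits was 3.50 CPM in replicate 1 and 3.24 CPM in replicate 2. All 7 heart marker genes reached 3 reads in both libraries, and of 9 markers of lung, liver and skeletal muscle only the lung gene Scgb1a1 did, with 111 and 7 reads. None of those 9 genes held a member.

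The end of a messenger RNA is made by cleavage of the nascent transcript and addition of a poly(A) tail, usually a short distance after a hexamer such as AATAAA or ATTAAA that the cleavage machinery reads. Many genes hold such signals inside introns. Use of one gives a shorter transcript that keeps the first exons and ends in intron sequence, a process called intronic polyadenylation, and U1 snRNP is known to restrain it. A transcript that reaches the gene's usual end while its last intron is still unspliced also keeps only the first junctions, so it falls in the same class without lacking any of the 3' sequence. A further known source of early ends is a stretch of A inside a transcript, to which a reverse transcription primer of T can anneal. The primer used here is not stated in the labels.

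The ends of the members are shown first. The 5 sequences below are the last 30 bases of members that stop inside an intron, chosen from the intronic members with the most reads whose ends lay on annotated 3' ends. Synpo, which ranks above Mccc1 by CPM, is not shown, and neither hexamer stood in the 50 bases before its end. The next pair comes from members that keep an unspliced intron and reach an annotated end of the gene. All are reference sequence of GENCODE release M21 on mm10, written 5' to 3' on the strand of the gene, with AATAAA or ATTAAA in capitals.
Caprin1 (chr2:103767107-103767136, minus strand): cactcAATAAAtacttgttgaatgaatgaa
Lrp6 (chr6:134540774-134540803, minus strand): taaagcttatacaATTAAAaaatataaaaa
Sik3 (chr9:46202856-46202885, plus strand): agggaagttgaAATAAAatggttttcatgg
Mccc1 (chr3:35973380-35973409, minus strand): cctctaaactAATAAAacagagactctctc
Ankrd11 (chr8:122897020-122897049, minus strand): atgtaaatgaaAATAAATAAAccagcttac
Nexn (chr3:152236982-152237011, minus strand): aatcaaAATAAAtttacctgtgcATTAAAa
Kank3 (chr17:33822885-33822914, plus strand): catgaaacatcctAATAAAagtatttctac
A hexamer lay within the last 30 bases of these examples, while over all intronic members at annotated ends it stood in 66.3% and 62.7% of the windows of 50 bases. In Ankrd11 a pair of AATAAA hexamers overlap, and Nexn holds both hexamers.

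Some members that stopped inside an exon of the longer transcript were followed by A-rich sequence, with 12 or more A in the next 20 bases in 16 of 44 such ends in replicate 1 and 16 of 52 in replicate 2. The first 30 bases after the end are given for 4 members that ended on the same base in both libraries, 3 with such sequence and 1 without, with runs of 4 or more A in capitals.
Son (chr16:91654700-91654729, plus strand): AAAAAgcacAAAAAcAAAAAgaagAAAAAg
Kmt2e (chr5:23485452-23485481, plus strand): aaggAAAAAAggAAAAAAAgagaaagatac
Eif5 (chr12:111541728-111541757, plus strand): aaagaaagAAAAggAAAAgAAAAAtagaaa
Acd (chr8:105698128-105698157, minus strand): aggaggagagagattcaggggttggggccg
Of the first 20 bases after the end, 16 were A in Son, 15 in Kmt2e, 15 in Eif5 and 7 in Acd. The ends of Kmt2e, Eif5 and Acd lay exactly on annotated 3' ends, and that of Son did not. Ccnl2, with more reads than Kmt2e, had ends that differed between the libraries, followed by 6 and 12 A. The part these A stretches play in the ends was not tested.

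Members made up a small part of the heart transcriptome. They held 2102 reads in replicate 1 and 2242 in replicate 2, which is 0.245% (95% Clopper-Pearson interval 0.235 to 0.256%) and 0.242% (0.232 to 0.252%) of the reads used. The intervals overlap, and they cover counting error only. Incomplete models of the opposite kind, which lack the 5' part, were far more frequent, with 7890 matched models and 47504 and 51633 reads. A member had a median of 2 reads in each library and at most 39 and 41. Of the 695, 232 had exactly 1 read in each library, and these lie at the edge of the rule, whereas 66 had at least 5 reads in each and 12 had at least 20. Just outside the rule were models of the same class seen in 1 library only, 1556 in replicate 1 and 1705 in replicate 2, of which 88.4% and 90.1% had 1 read. Members held 51.7% and 49.4% of all reads on prefix models.

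The deposited 5' ends of the members mostly coincided with annotated starts, but how these ends were chosen is not stated. The start lay exactly on an annotated transcript start in 673 members in replicate 1 and 674 in replicate 2. The class keeps the first junctions of a longer chain by definition, which partly sets where the starts lie. Members had 2 to 50 exons, with a median of 7. The longest chain was that of Col3a1, which encodes type III collagen, with 50 of 51 exons and only 2 and 1 reads.

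For 603 members an annotated transcript of the gene began with the same intron chain, and the one with the most reads was taken as the parent. Members kept a median of 73.5% of the parent's exons. In 255 members the last intron alone was lacking, in 69 the last 2, and in 117 at least 10. For the 576 members whose parent has a coding sequence, the exons before the next intron of the parent held a median of 72.8% of it (quartiles 44.8 and 90.5%), and all of it for 47. In 527 that intron lay within the coding sequence. A member that stops before the end of its last exon holds less than this count. The parent itself had reads in both libraries for 471 members. Of all 603, 140 had at least as many reads as their parent in both libraries. This count includes every member whose parent had no read in either library.

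The position of the 3' end against the parent's next intron divided the members into 4 groups, a division made after the ends had been seen. In 253 members in each library (42.0%) the end lay more than 10 bases into the next intron and no more than 10 bases past its far side. In 209 members in each library (34.7%) it lay beyond the whole next intron, so that the last exon of the member ran through at least 1 intron of the parent. It lay within 10 bases of the donor, the splice site at which the next intron begins, in 96 (replicate 1) and 88 (replicate 2) members. In the remaining 45 and 53 it lay inside the exon, upstream of the donor. Of the 603 members, 544 fell in the same group in both libraries and 59 did not. The 3' end was past the donor in 76.6% of members in each library.

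**Figure D1:**
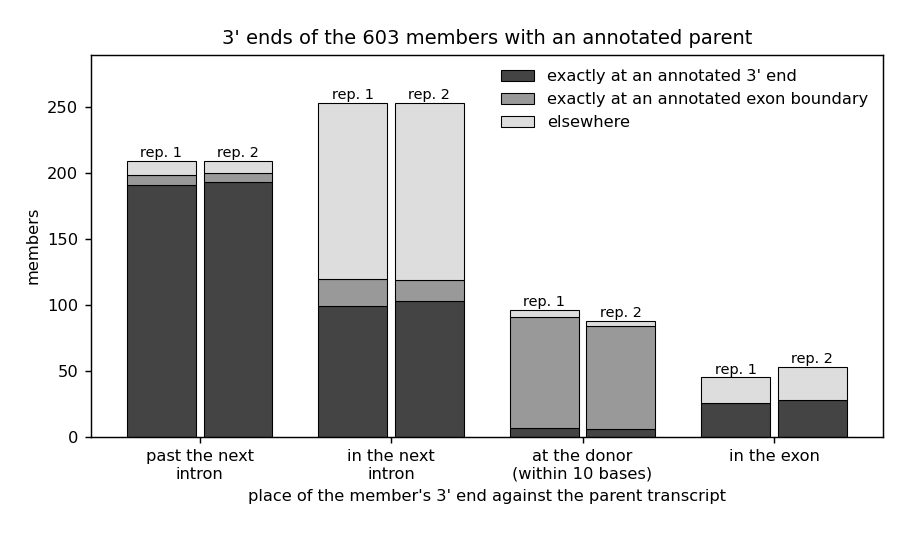
Number of members (vertical axis) by place of the 3' end against the next intron of the parent transcript, for replicate 1 (left bar of each pair) and replicate 2 (right bar). Shades mark ends exactly at an annotated 3' end, exactly at another annotated exon boundary, or elsewhere. The 209 members ending past the next intron are nearly all at annotated 3' ends, those at the donor mostly at exon boundaries, and over 130 of the 253 intronic ends lie elsewhere.

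The label of the class as lacking the 3' part therefore did not hold for every member. In 121 members the end lay within 100 bases of the parent's own 3' end in both libraries, and 103 of these lacked only 1 intron, so they kept an unspliced intron rather than a shortened 3' side. The next intron was short in members that ran past it, with a median of 392 bases (quartiles 143 and 999). It was long in members that ended inside it, with a median of 3414 bases (quartiles 1812 and 6235). All introns of the parents had a median of 1405 bases. Intron length and place are linked by construction, since an end past a longer intron needs a longer last exon. Where an end lay inside the intron in both libraries, it stood a median of 891 bases past the donor (quartiles 454 and 1586).

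The groups also differed in what the end coincided with. Of the ends past the next intron, 191 of 209 in replicate 1 and 193 of 209 in replicate 2 lay exactly on an annotated 3' end of the gene. Of the intronic ends, 99 and 103 did, and 133 and 134 lay at no annotated end or exon boundary. Ends at the donor lay exactly on an exon boundary in 84 of 96 and 78 of 88, since the donor itself is such a boundary. Over all 695 members, 55.1% and 55.0% of ends lay exactly on an annotated 3' end, against 88.3% and 88.0% for matched models lacking the 5' part. By definition the latter keep the last junctions of a longer chain and members keep the first, so this contrast is partly set by the class. For 123 members the whole last exon, from its acceptor to its end, was shared with another annotated transcript, of type protein_coding in 54 and retained_intron in 48. Only 0 and 3 member ends lay within 24 bases of an annotated 3' end without being exactly on it. The deposited models give 1 end per model and library rather than an end per read, and no header or label states how that end was chosen. Whether ends were set to annotated sites when the models were built cannot be told here, so exact coincidence is given as description.

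The hexamer AATAAA or ATTAAA was searched in the 50 bases before each end on the strand of the gene, where an annotated transcript supplied those bases. Among ends past the next intron it was found in 82.1% in replicate 1 and 81.2% in replicate 2. Of these windows, 190 of 201 and 191 of 202 lay before ends exactly on annotated 3' ends, so the values mostly describe annotated sites. Models lacking the 5' part gave 82.1% and 81.7%, and annotated spliced transcripts with reads in both libraries gave 74.0%. Intronic ends lying exactly on an annotated 3' end held the hexamer in 66.3% and 62.7%. Ends at the donor held it in 10.9% and 12.2%, and ends inside an exon in 27.5% and 23.4%. The value at the donor depended on the window, with a mean of 11.5% at 50 bases and 6.38% at 40. The background was 3.61% of windows of 50 bases tiled along annotated transcripts and 2.00% of windows before annotated donors. Intronic ends away from annotated ones had too little annotated sequence to be counted.

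**Figure D2:**
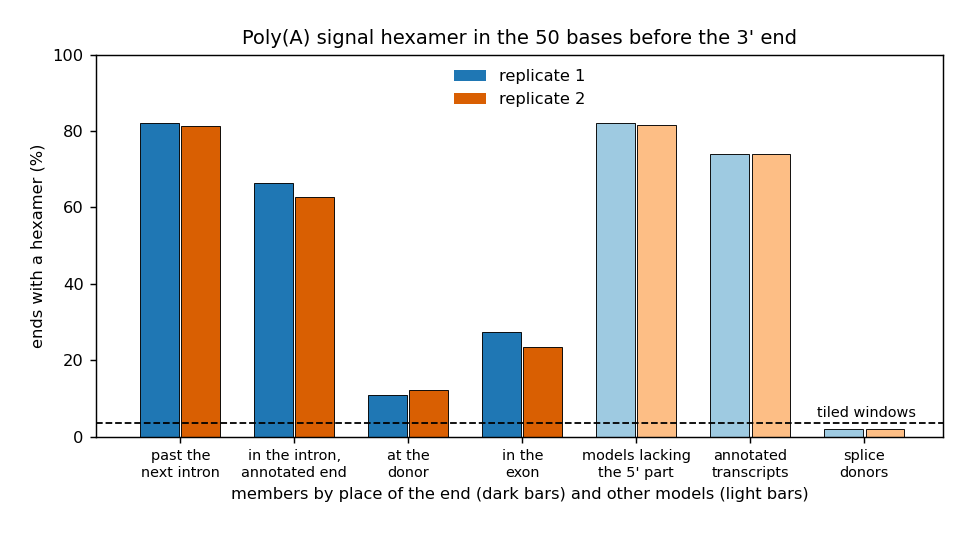
Percent of 3' ends (vertical axis) with AATAAA or ATTAAA in the 50 bases before the end, in replicate 1 (left bar) and replicate 2 (right bar), for members by place of the end (dark bars) and for other models (light bars). The dashed line is the 3.61% of windows tiled along annotated transcripts. Members past the next intron reach 82.1% and 81.2%, beside 82.1% and 81.7% for models lacking the 5' part, and members at the donor 10.9% and 12.2%.

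The 16 ends inside an exon that were followed by 12 or more A in 20 bases made up 36.4% of those with sequence in replicate 1 and 30.8% in replicate 2. In each library 12 of these 16 lay exactly on an annotated 3' end. Of windows of 20 bases tiled along annotated transcripts, 0.956% held as many. For the other groups too few ends had annotated sequence after them. Several of these members share a gene and an end, as in Kmt2e, and are not independent of each other.

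The 3' ends were compared between the libraries, because ends were not used to match the models. They fell within 24 bases of each other in 531 of 695 members (76.4%), and on the same base in 431. The same share was 86.7% for models lacking the 5' part and 84.6% for models with new splice sites or new combinations of known ones. More of the ends in those 2 classes lay exactly on annotated 3' ends. Where both ends lay more than 24 bases from annotated 3' ends, the share was 73.9% for members, 78.4% for models lacking the 5' part and 72.7% for the new models. Of 149 members whose ends lay away from annotated ends and boundaries in both libraries, 112 agreed within 24 bases (75.2%) and 52 on the same base. This last comparison was added once the ends were known.

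**Figure D3:**
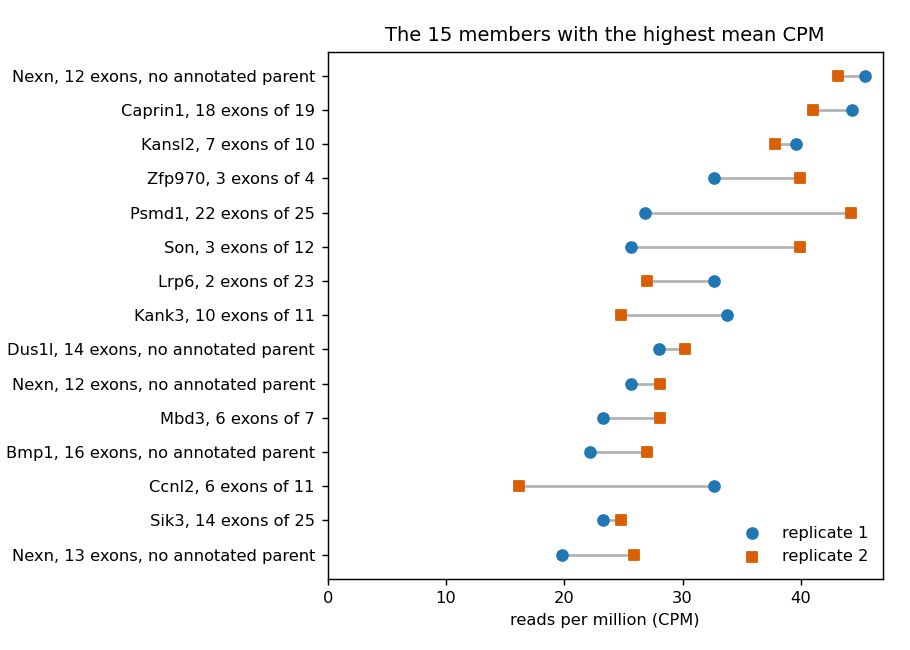
Level in CPM (horizontal axis, from 0) of the 15 members with the highest mean, in replicate 1 (circles) and replicate 2 (squares). Labels give the exons of the member and, where an annotated parent exists, the exons of that parent. The values lie between 16.2 and 45.5 CPM, and the libraries lie farthest apart for Psmd1 and Ccnl2.

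Among the members with intronic ends, Caprin1 was the highest. Caprin1 encodes an RNA-binding protein of stress granules. The member had 38 reads in replicate 1 and 38 in replicate 2, 42.6 ± 2.31 CPM (SD, n = 2), and kept 18 of 19 exons of Caprin1-201. It ended 1299 bases into the last intron of 1542 bases, on the end of the annotated transcript Caprin1-209. It took 29.0% and 27.5% of the gene's reads, while the parent had 59 and 63 reads. The long and the short form were thus both present in each library, at similar ratios.

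Lrp6, a co-receptor of Wnt signalling, had most of its reads on a short model of 1595 bases. The member had 28 of the gene's 30 reads in replicate 1 and 25 of 27 in replicate 2, or 93.3% (95% interval 77.9 to 99.2%) and 92.6% (75.7 to 99.1%). It kept 2 of the 23 exons of Lrp6-201 and 9.28% of its coding sequence, and ended 878 bases into an intron of 21058 bases, on the end of the annotated retained-intron transcript Lrp6-205. The full-length parent had 1 read in each library. With genomic reads counted with the gene, the mean share of the member was 77.9% rather than 93.0%. The intervals of the share overlap between the libraries, and with so few reads they span over 20 percentage points.

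Sik3, a salt-inducible kinase, gave a similar picture with 20 of 26 and 23 of 30 gene reads on a member of 14 of 25 exons. That is 76.9% and 76.7% of the gene's reads. The end lay 815 bases into the next intron, on that of the annotated protein-coding transcript Sik3-203. Ankrd11, a chromatin regulator with ankyrin repeats, had 15 of 41 and 18 of 48 reads on a member with 7 of 13 exons, whose end coincided with that of Ankrd11-205. The exons before the next intron held 9.38% of the coding sequence of its parent.

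Mccc1 encodes the biotin-carrying subunit of the enzyme that breaks down leucine in mitochondria. Its member had 18 and 16 reads, or 10.8% and 11.3% of the gene's reads, and kept 13 of 19 exons. The parent was well covered here, with 120 and 105 reads. The end, 694 bases into the intron, was that of the retained-intron transcript Mccc1-203. Synpo, encoding the actin-associated protein synaptopodin, had 19 of 36 and 15 of 21 reads on a member of 2 of 3 exons that ended on annotated ends of the gene, and its parent had no read in either library. The mean share was 62.1%, and 38.4% when genomic reads were counted with the gene.

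Other intronic members ended away from annotated 3' ends in at least 1 library. Kansl2, a subunit of the NSL histone acetyltransferase complex, had 34 and 35 reads on a member of 7 of 10 exons, which ran through the whole next intron of 1862 bases and stopped at its far edge in both libraries. Zfp970, a zinc finger gene of a large family of similar sequences, had 28 and 37 reads, and its ends lay 1148 and 843 bases into the intron. Reads of such families can be placed on the wrong copy, so this level is uncertain. The same holds for 2610005L07Rik, with 15 and 16 reads on its member, whose end lay on an annotated end in replicate 1 and 763 bases away from it in replicate 2.

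Papola and Pdgfra were the members of lists on polyadenylation. Of 22 detected genes for cleavage, polyadenylation and U1 snRNP, 1 (4.55%) had a member, beside 5.48% of all annotated genes. This was Papola, the poly(A) polymerase, with 4 and 2 reads. Of 8 genes with intronic polyadenylation forms known from earlier work, all detected, 1 (12.5%) had a member, Pdgfra, with 2 and 1 reads. That end lay 1 base past an intron of 784 bases, at an exon boundary. Both members were at or near the floor of 3 reads, so little can be said of their levels. With 1 gene in each, neither list is set apart from all annotated genes.

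Among members that ran past the next intron, Kank3 was the highest of those with an annotated parent. Kank3 belongs to a family of proteins that link the cytoskeleton to cell adhesion sites. Its leading member had 29 and 23 reads, or 29.3 ± 6.35 CPM, and lacked only the last splice, with the end 4 bases from that of the parent Kank3-201. A second member had 13 and 8 reads and kept the last 2 introns, of which the first is 79 bases long. Kank3-201 had 224 and 209 reads, so the unspliced forms were a minority in each library.

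Mbd3, a subunit of the NuRD chromatin remodelling complex, had 20 of 84 and 26 of 109 reads on a member that kept the last intron of 76 bases. The share was 23.8% and 23.9%, and the end was exactly that of the parent Mbd3-204. The whole coding sequence lies upstream of this intron, so the retained intron falls in the 3' untranslated region of that parent. Srsf2, a splicing factor rich in serine and arginine, had 9 of 113 and 18 of 148 reads on a member that ran through the next intron of 1059 bases to within 3 bases of the parent's end, also with the whole coding sequence kept. Regulated splicing in its 3' untranslated region is a known way in which Srsf2 limits its own level.

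Nexn stood apart because 3 of its 5 members were among the 15 highest of all. Nexn encodes nexilin, an actin-binding protein of the Z-disc and the junctional membrane of heart muscle. The most abundant had 12 exons with 39 and 40 reads (44.3 ± 1.61 CPM), another with 12 exons had 22 and 26, and one with 13 exons had 17 and 24. These 3 end at the same annotated 3' end of the gene, and no annotated transcript begins with their chain. They are the first part of unannotated chains of 13 or 14 exons found in the same libraries, and ran past the next intron of those. The 5 members took 82 of 393 and 98 of 413 gene reads, or 20.9% and 23.7%.

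Such members without an annotated parent numbered 92, in 72 genes, with 343 and 376 reads in all. For 91 of them an unannotated model of these libraries began with the same chain, of which 50 were new combinations of known splice sites and 28 held a new splice site. Their ends lay exactly on an annotated 3' end in 60 in replicate 1 and 52 in replicate 2. Dus1l, a tRNA dihydrouridine synthase, had 24 of 64 and 28 of 70 reads on such a member, with ends 1736 bases apart between the libraries. Bmp1 encodes the procollagen C-proteinase, of which a short form and a longer form called tolloid are known. Its member of 16 exons had 19 of 77 and 25 of 83 reads and ended on the same base in both libraries, at no annotated end.

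Nebl, encoding the Z-disc protein nebulette, had 7 members with 18 of 66 and 23 of 92 reads. Of these, 6 had no annotated parent and 18 to 21 exons, each with 1 to 6 reads a library. These 6 ended on or close to annotated 3' ends. The seventh had 8 exons of Nebl-210 and ended in an intron of 10733 bases, with 3 and 1 reads.

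The members ending inside an exon were led by Psmd1 and Son. Psmd1, a scaffold subunit of the proteasome's regulatory particle, had 23 of 184 and 41 of 199 gene reads. The end lay at -51 bases from the donor of exon 22 of 25 in both libraries (negative positions lie upstream) and coincides with the annotated ends of Psmd1-204 and Psmd1-207. Son, a large protein of nuclear speckles that acts in splicing, had 22 of 39 and 37 of 51 reads on a member of 3 of 12 exons, directly before the A-rich stretch printed above. That end lay on the same base in both libraries, at -5881 bases from the donor of a very long exon, and at no annotated end. Both members had more reads in replicate 2.

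Kmt2e, a chromatin protein related to trithorax, had nearly all its reads on members. Its 4 members held 17 of 17 and 15 of 19 gene reads. Members of 13 and 14 exons, with 8 and 9 and with 2 and 3 reads, stop at the same base before the A-rich sequence printed above. That base is the annotated 3' end of the transcript Kmt2e-209. One of 16 exons, with 6 and 2 reads, stops exactly at a donor. The parents Kmt2e-201 and Kmt2e-202 had no reads. Ccnl2, encoding cyclin L2, had 28 and 15 reads on a member whose ends lay 530 bases apart between the libraries.

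At the donor, Sec62 and Eif5b had the most reads. Sec62, a component of the protein translocation channel of the endoplasmic reticulum, had 14 of 106 and 13 of 111 reads on a member of 4 of 8 exons that stopped exactly on the donor. Eif5b, which joins the ribosomal subunits at initiation, had 11 of 32 and 16 of 39 reads on a member of 5 of 24 exons with the end exactly on the donor. Neither had a hexamer in the 50 bases before the end. The bases after a donor lie in the intron and were not read here.

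**Figure D4:**
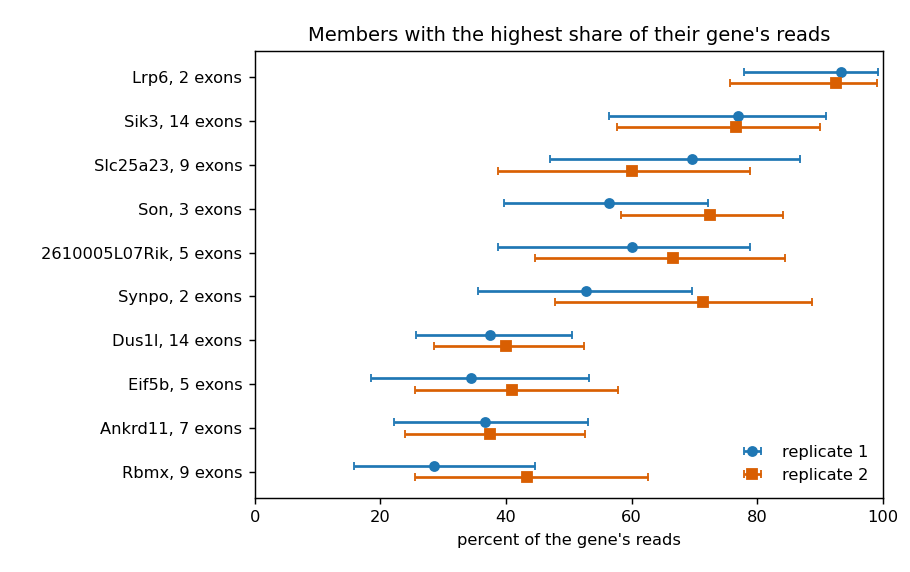
Percent of the gene's reads (horizontal axis, 0 to 100) on the 10 members with the highest mean share, in genes that reached 20 reads in both libraries. Circles and squares are replicates 1 and 2, and bars are exact 95% Clopper-Pearson intervals. Genomic reads are left out of the gene's reads. Lrp6 stands at 93.3% and 92.6% and Rbmx at 28.6% and 43.3%, and within each member the intervals of the libraries overlap.

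Shares above 25% of the gene in both libraries were found for further named members. Slc25a23, a mitochondrial carrier of ATP-Mg and phosphate, had 16 of 23 and 15 of 25 reads on its member of 9 of 10 exons. The member's mean share was 64.8%, and 53.6% when genomic reads were counted with the gene. Its ends lay on annotated ends 3340 bases apart, past the intron in replicate 1 and 135 bases into it in replicate 2. Luc7l2, a U1 snRNP-associated splicing factor, had 14 of 43 and 12 of 31 reads, with ends 2494 bases apart. Rbmx, an RNA-binding protein of the hnRNP G family, had 12 of 42 and 13 of 30 reads on a member of 9 exons that ended on the same base in both. These genes had few reads here, and the intervals of their shares are wide. Whether long transcripts were read in full as often as short ones was not tested. The shares of all named members are thus shares of reads, not of transcripts.

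Myh6, the main myosin heavy chain of the adult mouse heart, held the most members of any gene, but very few of its reads. Its 22 members had 51 of 26832 and 62 of 28537 reads, or 0.190% and 0.217%. They kept 7 to 38 exons, and each had 1 to 6 reads in replicate 1 and 1 to 11 in replicate 2. The highest had 23 of 39 exons with 5 and 11 reads, ending at the donor and 4 bases past it. None ended on an annotated 3' end in both libraries, and 6 of the 20 with an annotated parent ended within 10 bases of a donor in both. Of these 20, 11 fell in the same group of ends in both libraries. Myh6 and the neighbouring Myh7 have similar sequences, so a few reads may have been placed on the wrong gene.

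The sarcomere and Z-disc list had members in 10 of 30 detected genes (33.3%, beside 5.48% of all annotated genes), 44 members in all. They held 0.249% and 0.285% of the list's reads, beside 0.255% and 0.251% for all annotated genes. Genes with 1000 reads or more of any kind had 0.062% and 0.073%. Nexn alone held 82 of the list's 167 member reads in replicate 1 and 98 of 215 in replicate 2. The calcium handling list had members in 7 of 16 detected genes (43.8%), with 0.346% and 0.212% of its reads on members. Its highest were Atp2a2, the SERCA2 calcium pump, and Ryr2, the ryanodine receptor. Atp2a2 had 11 of 7664 and 13 of 8125 reads on a member of 19 exons, and Ryr2 had 8 of 61 and 7 of 43 on a member of 22 exons that ended in an intron of an unannotated chain. The shares were 0.144% and 0.160% for Atp2a2 and 13.1% and 16.3% for Ryr2.

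Fatty acid uptake and oxidation had members in 6 of 21 detected genes (28.6%, beside 5.48% of all annotated genes). They held 0.041% and 0.037% of the list's reads, beside 0.062% and 0.073% for genes with 1000 reads or more of any kind. Fabp3, the heart fatty acid-binding protein, had 5 of 6082 and 4 of 7913 reads on a member that ran past its last intron of 1116 bases, and Hadha, the trifunctional protein's alpha subunit, had 2 and 3. Oxidative phosphorylation and the citric acid cycle had members in 8 of 29 genes (27.6%) with 0.028% and 0.037% of reads, led by Idh3b, a subunit of isocitrate dehydrogenase, with 6 and 8 reads, and Cyc1, cytochrome c1, with 5 and 7. These last-intron members of Fabp3, Hadha, Idh3b and Cyc1 all reached annotated 3' ends in both libraries.

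Glycolysis and glycogen had a member in 1 of 18 genes, Pgam2, the muscle phosphoglycerate mutase, with 1 read in each library. The matrix and fibroblast list had members in 3 of 24 genes and the endothelial and mural list in 2 of 16. The latter were Egfl7, a secreted factor of endothelium, with 6 and 4 reads, and Fabp4, the fatty acid-binding protein of capillaries and fat cells, with 4 and 2. Both ran past their last intron to an annotated end. The splicing regulators had members in 4 of 25 genes, Hnrnpa2b1, Luc7l2, Rbm20 and Srsf2. They held 1.81% and 1.70% of the list's reads, beside 0.255% and 0.251% for all annotated genes. Most of the list's 47 and 48 member reads came from Hnrnpa2b1 (17 and 15), Srsf2 (15 and 20) and Luc7l2 (14 and 12). The difference from all annotated genes was not tested. Of all annotated genes that reached 3 reads in both libraries, 5.48% held a member.

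How many genes of a list hold a member moves with how deeply its genes were read. The share of genes with a member rose from 1.77% at a mean of 1 to under 10 reads per gene to 28.7% at 1000 reads or more. The share of reads on members fell over the same range, from 0.847% and 0.765% to 0.062% and 0.073%. Genes with a member had a median of 49.6 CPM, against 18.4 for the 12300 genes with reads in both libraries. A member needs a read in each library, so deeply read genes meet the rule more easily. The rising share of genes and the higher median are partly set by this and are given as description. Of the 576 genes with a member, 264 also held a matched model lacking the 5' part. Such models lay in 3457 genes in all, beside the 12300 genes with reads in both libraries. Depth was not matched in this overlap, which was not tested.

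**Figure D5:**
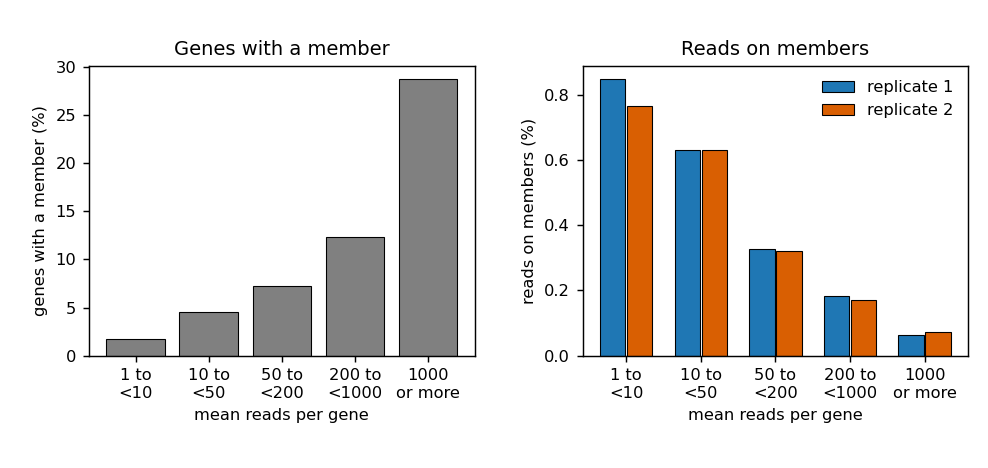
Left, percent of annotated genes with at least 1 member, and right, percent of the genes' reads on members in replicate 1 and replicate 2, by mean reads per gene (horizontal axis). Genes with a member rise from 1.77% to 28.7%, while reads on members fall from 0.847% and 0.765% to 0.062% and 0.073%. The rise is partly set by the rule, which asks for a read in each library.

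Each model's reads in replicate 1 were set against those in replicate 2 by an exact two-sided binomial test with the library totals as expectation, over 12309 matched models with at least 10 reads in all, with Benjamini-Hochberg adjustment at 0.05. Of all models 1.12% were called, and of the 92 members tested 0 were. At an unadjusted exact p under 0.05 there were 2 members, Cops7a with 13 and 4 reads and Ccnl2 with 28 and 15, and 7.67% of all models. The share of the gene's reads was compared by Fisher's exact test over 9277 models in genes that reached 20 reads in both libraries. Here 0.291% of all models were called and 0 of 78 members, and 3 members (Cops7a, Psmd1 and Plin5) had an unadjusted p under 0.05, as did 5.43% of all models. The members had been chosen by having reads in each library, so nothing is read from these counts about how far the members differ. Both tests compare these libraries and cover counting error only.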

How the data were processed

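Long-read RNA-seq of heart was taken as deposited. Per the file headers and the deposited text, the authors assigned filtered alignments on mm10 to transcript models with TALON and GENCODE M21, 1 library at a time, and gave raw read counts per model as whole numbers. The aligner with its settings was not given in the sources used here. Models were matched by intron chain from the deposited annotation files, and ends are 1-based. CPM was computed over non-genomic, non-spike-in reads. The members and gene lists were chosen with earlier results of these data known.

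No genome sequence was used here, so bases around ends came from exons of M21 transcripts, and a share is given only where at least 80% of the ends had them. The planned reading of genome bases was replaced by this, and printed windows lie before the end for most members. The sequence after 1 end is not reported here. Named members were the 15 with the highest mean CPM, the 10 with the highest share in genes with at least 20 reads in each library, the 5 intronic ones with the most reads whose ends lie over 100 bases past the donor and before the end of that intron (which leaves out Kansl2), and the 2 highest of each list. Sec62, Kmt2e, Nebl, Eif5, Acd, Cops7a and Plin5 were added after their values were seen. The tests were an exact binomial test and Fisher's exact test (scipy 1.17.1), checked on simulated counts. TMM factors came from edgeR 4.0.16. Python 3.11.15, numpy 2.4.6 and matplotlib 3.10.9 were used. Alternatives were read minimums, end tolerances, windows, totals and parents, and each library read alone with the members unchanged.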

Additional observations from a re-analysis of the deposited data

How the results depend on the processing

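The number of members depends most on the read minimum, with 249 at 2 or more reads in each library and 66 at 5 or more. With genomic reads kept in the total, members held 0.236% of reads. A hexamer window of 40 bases gave 6.38% of ends at the donor, and 10 or more A gave 40.6% of ends inside an exon. Values of each library alone repeat those given above, since members were still required in both. The share of reads was 0.242 to 0.245%, and 76.6% of ends were past the donor in each. The hexamer stood in 81.2 to 82.1% of ends past the next intron, 10.9 to 12.2% at the donor and 23.4 to 27.5% inside an exon. A-rich sequence followed 30.8 to 36.4% of ends inside an exon. All prefix models of a library, matched or not, held 0.474% of reads in replicate 1 and 0.490% in replicate 2. Other tolerances gave 76.2 to 77.4% of ends past the donor and 73.7 to 79.3% of ends agreeing between libraries. No member was called under any of the other totals and minimums run. No paired analysis was possible because there is 1 group. Of the 695 members, 446 rest on 1 read in at least 1 library, so their ends and shares are poorly resolved at this depth.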

Other observations

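In some lightly read genes, members held most or all of the reads; these genes were picked after their values were seen. Tlcd2, a membrane protein with a TLC domain, had 13 of 13 and 17 of 18 gene reads (replicates 1 and 2) on a member that kept 4 of 5 exons and ran past the last intron of 498 bases to an annotated end 242 bases from that of its parent. Qsox2, a sulfhydryl oxidase, had 14 of 19 and 12 of 19 reads on a member that kept its last intron of 1480 bases unspliced up to the parent's own end. Hcfc2, a relative of host cell factor, had 6 of 10 and 12 of 13 reads on a member of 14 of 15 exons that stopped exactly on the last donor. The parents of Tlcd2 and Hcfc2 had no read in either library, and that of Qsox2 had 4 and 3.

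Some members of the same gene shared an end. In Asb2, a muscle subunit of a ubiquitin ligase, members of 4 and of 6 exons with different starts both ended 645 bases into the same intron in both libraries, at no annotated end, with 3 and 5 and with 3 and 7 reads. In Hnrnpa2b1, an RNA-binding protein of the spliceosome, members of 10 and 11 exons with 4 and 2 and with 5 and 2 reads stopped exactly at the donor of an intron of 486 bases, and each kept the whole coding sequence.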
